A study of Mus musculus with 3 samples.

Results

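The urea cycle genes described here are 8 of the 55357 genes counted in single cells of mouse liver, namely Cps1, Otc, Ass1, Asl, Arg1, Nags, Slc25a15 and Slc25a13. They were chosen by their gene symbols, and each symbol matched 1 gene. Male C57BL/6 wild-type mice, 8 weeks old at the start, were left untreated under standard conditions (control), were given for 4 months a high-fat diet in which fat supplied 60% of the calories or kept on chow for 3 months and then injected intraperitoneally with 0.1 mL of 10% carbon tetrachloride (CCl4, a liver toxin that hepatocytes activate) 2 times per week for 4 weeks. The cells of 2 mice were pooled in each group, hepatocytes and nonparenchymal cells were mixed 1:1, and 1 library per group was made with the 10x Genomics 3′ kit. Mice and conditions therefore cannot be told apart, no p-value is given, and each interval in the text is a 95% interval that covers counting error only.

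The urea cycle turns ammonia released from amino acids into urea, and in the liver it runs mainly in hepatocytes near the portal vein. Cps1 makes carbamoyl phosphate from ammonia in the mitochondrion, Nags makes the N-acetylglutamate that Cps1 needs, and Otc joins carbamoyl phosphate to ornithine to give citrulline. Ass1 and Asl turn citrulline and aspartate into arginine in the cytosol, and Arg1 splits arginine into urea and ornithine. Slc25a15 carries ornithine and citrulline across the inner mitochondrial membrane, and Slc25a13 (citrin) exports aspartate from mitochondria. Ammonia that escapes the cycle is taken up by hepatocytes around the central vein, which bind it to glutamate through glutamine synthetase (Glul).

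In the GENCODE annotation of GRCm38, Cps1 (ENSMUSG00000025991) lies on the plus strand at chr1:67123026-67231259, Otc on the plus strand at chrX:10252305-10321024 and Ass1 on the plus strand at chr2:31470207-31520672. Asl lies on the minus strand at chr5:130011258-130029247 and Arg1 on the minus strand at chr10:24915221-24927484. Slc25a15 and Slc25a13 are on the minus strand at chr8:22375551-22398597 and chr6:6041218-6217173. None of these 7 genes overlaps another annotated gene. Nags, on the plus strand at chr11:102145513-102149477, overlaps Gm11586 on the opposite strand, and their UMIs cannot be told apart if the counting ignored the strand.

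Promoter sequences from RefSeq (GRCm38.p6) were available for 5 of the 8 members. The 150 bases that end before the first annotated start are shown for 2 members that were higher in periportal than in pericentral hepatocytes of the control and high-fat diet libraries (Otc and Ass1) by CPM and for the 2 carriers, which were not. Capitals mark matches, on either strand, to letters known from sites of liver and general factors. The letters AAAGTNCA stand for HNF4, a factor that many hepatocyte genes need, and TTGCNNAA for the C/EBP family. The cyclic AMP response element (CRE) was searched as TGACG. The boxes of general factors were the CCAAT box, spelled as its name, the TATA box, searched as TATAAA, and the GC box, searched as GGGCGG. No matches overlap in the sequences shown.
Otc, plus strand, chrX:10252155-10252304: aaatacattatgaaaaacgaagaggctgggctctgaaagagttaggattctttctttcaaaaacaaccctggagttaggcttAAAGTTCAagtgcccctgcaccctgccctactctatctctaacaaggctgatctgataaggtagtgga
Ass1, plus strand, chr2:31470057-31470206: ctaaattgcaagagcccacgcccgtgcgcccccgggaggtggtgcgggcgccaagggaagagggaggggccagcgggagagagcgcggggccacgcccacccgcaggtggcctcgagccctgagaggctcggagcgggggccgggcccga
Slc25a15, minus strand, chr8:22398622-22398771: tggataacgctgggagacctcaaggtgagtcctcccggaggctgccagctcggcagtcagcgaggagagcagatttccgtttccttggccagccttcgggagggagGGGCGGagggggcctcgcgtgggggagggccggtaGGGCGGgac
Slc25a13, minus strand, chr6:6217174-6217323: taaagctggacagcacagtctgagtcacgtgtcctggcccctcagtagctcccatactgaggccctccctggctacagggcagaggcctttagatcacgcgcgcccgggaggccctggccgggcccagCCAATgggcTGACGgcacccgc

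Otc held 1 match to the HNF4 letters, which 3.53% of all 32851 promoters hold within 250 bases before the start. The Slc25a15 start shown held 2 GC boxes, a motif found in 32.7% of all promoters, and Slc25a13 held 1 CCAAT box (33.8%) and 1 CRE match (17.8%). The stretch of Ass1 shown held none of the letters. The C/EBP letters (9.56% of all promoters) and the TATA box (12.4%) were not found in the 250 bases of any member listed. GC content over these 250 bases ran from 43.6% at Otc to 75.6% at Ass1. The matches are descriptions of letters and not of binding.

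Hepatocytes were taken as cells of hepatocyte-like clusters with 3 to 30% mitochondrial UMIs and no Ptprc UMI, Ptprc being a marker of blood cells. There were 1201 such cells among 11207 in the control, 829 among 12983 under the diet and 2299 among 12761 with CCl4. Their median depth was 8423, 3594 and 3130 UMIs. The libraries held 49613255, 34985786 and 34061186 UMIs, with a median of 2173 to 2939 UMIs per barcode, and shared 36 to 52 cell barcodes with each other. All control hepatocytes came from 1 cluster, led by Steap4, Il1r1 and Mup17, whereas 97.0% of the high-fat diet hepatocytes came from a cluster led by the pericentral genes Cyp1a2, Glul and Cyp2c37, and 2185 of the 2299 CCl4 hepatocytes from a cluster led by G6pc, mt-Nd3 and mt-Nd6. A cluster made mostly of 1 library may be that library rather than a type. The members were left out of the clustering. Of 12 hepatocyte markers, 12, 11 and 8 had a higher CPM (UMIs per 1e6 UMIs) in hepatocytes than in T cell-like cells of the control, diet and CCl4 libraries. Of 117 markers of 15 other cell types, 19 to 31 were at 0 in hepatocytes. The highest list sum was that of plasma cell genes, with 1004 CPM in the control, 423 under the diet and 555 with CCl4, with Xbp1 as its highest gene in the first 2 and Sdc1 with CCl4, both also used by hepatocytes. The T cell genes, 10 in number, summed to 9.89, 16.2 and 9.85 CPM. The part of such RNA in the results was not tested.

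All members were found in hepatocytes of the 3 libraries, and Cps1 was the most abundant in each. Levels of different genes are compared here as CPM without division by length, because a 3′ library counts the end of each RNA molecule. In control hepatocytes, Cps1 reached 2012 CPM (1985 to 2039) from 21571 UMIs, rank 59 among all genes. Arg1 followed with 721 CPM (705 to 737) and Ass1 with 658 CPM (643 to 674), and these 2 neighbours differed by a ratio of 1.09 (1.06 to 1.13). Otc stood at 276 CPM (266 to 286), Slc25a13 at 237 CPM (228 to 247), Slc25a15 at 197 CPM (188 to 205) and Asl at 109 CPM (103 to 115). Nags was the lowest, with 38.1 CPM (34.5 to 41.9). Nags, whose product activates Cps1, ranked 3015 among all genes.

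In high-fat diet hepatocytes, Cps1 reached 2821 CPM (2763 to 2880), Ass1 1080 CPM (1044 to 1117), Arg1 895 CPM (863 to 928) and Otc 452 CPM (429 to 476). Slc25a13 stood at 331 CPM (312 to 352), Asl at 269 CPM (251 to 288), Slc25a15 at 175 CPM (160 to 190) and Nags at 41.8 CPM (35.0 to 49.5). In CCl4 hepatocytes, Cps1 was at 5644 CPM (5594 to 5695), rank 19 among all genes, Ass1 at 2400 CPM (2367 to 2433), Arg1 at 1263 CPM (1239 to 1287) and Otc at 688 CPM (670 to 706). Asl was at 615 CPM (598 to 631), Slc25a13 at 328 CPM (316 to 340), Slc25a15 at 294 CPM (282 to 305) and Nags at 38.4 CPM (34.3 to 42.7). The order of the members was the same at both ends, with Cps1 first and Nags last, and Asl moved from the seventh place in the control to the fifth with CCl4. Neighbours in each order differed beyond their counting error. Together, the 8 genes made up 4248 CPM in the control, 6065 CPM under the diet and 11269 CPM with CCl4, and Cps1 alone held 47.4%, 46.5% and 50.1% of these UMIs.

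T cell-like cells, which should lack the cycle, also carried UMIs of all members, and more of them in the treated libraries. Their Cps1 level was 231 CPM in the control, 903 CPM under the diet and 1699 CPM with CCl4. The hepatocyte level was 8.72 times (8.10 to 9.39), 3.12 times (3.01 to 3.24) and 3.32 times (3.24 to 3.41) as high. For Otc, the ratio of hepatocytes to T cell-like cells was 2.29 (2.06 to 2.55), 1.30 (1.21 to 1.39) and 1.09 (1.04 to 1.14). For Ass1 it was 1.85 (1.74 to 1.97), 1.26 (1.20 to 1.32) and 1.13 (1.10 to 1.16), and for Arg1 2.27 (2.13 to 2.43), 1.36 (1.29 to 1.43) and 1.22 (1.18 to 1.26). Asl kept a ratio of 2.00, 1.78 and 1.73, Slc25a15 of 3.17, 2.08 and 1.91, Slc25a13 of 3.09, 1.82 and 1.86 and Nags of 2.87, 1.95 and 1.54. All 8 members were thus higher in hepatocytes in each library, but with CCl4 the levels of Otc, Ass1 and Arg1 were less than 1.25 times those of T cell-like cells. In bulk sums of this kind, fewer cells that express a gene and less RNA of it per cell cannot be told apart.

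Shares of cells with a UMI were read against T cell-like cells in the same way. Of control hepatocytes (median 8423 UMIs), 97.3% (96.3 to 98.2%) had a Cps1 UMI. Of control T cell-like cells (median 2453 UMIs), 45.3% (42.4 to 48.3%) had one. Thinned to 1000 UMIs in every cell, which left out no cell, the shares were 81.4% and 20.9%. Under the diet the thinned Cps1 shares were 84.5% and 59.2%, and with CCl4 98.7% and 78.0%. The thinned Otc shares were 22.5% against 8.39% in the control and 35.5% against 29.0% under the diet. With CCl4 they were 47.9% against 46.2%, so that the share of CCl4 hepatocytes with an Otc UMI was close to the background. Thinned Ass1 shares were likewise 43.8% against 22.4% in the control and 88.0% against 87.6% with CCl4. A Nags UMI was seen in 26.9% (24.4 to 29.5%) of control hepatocytes, 14.4% (12.0 to 16.9%) under the diet and 12.9% (11.5 to 14.3%) with CCl4. After thinning these shares were 3.78%, 4.21% and 3.96%, against 1.10%, 2.13% and 2.41% in T cell-like cells.

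**Figure D1:**
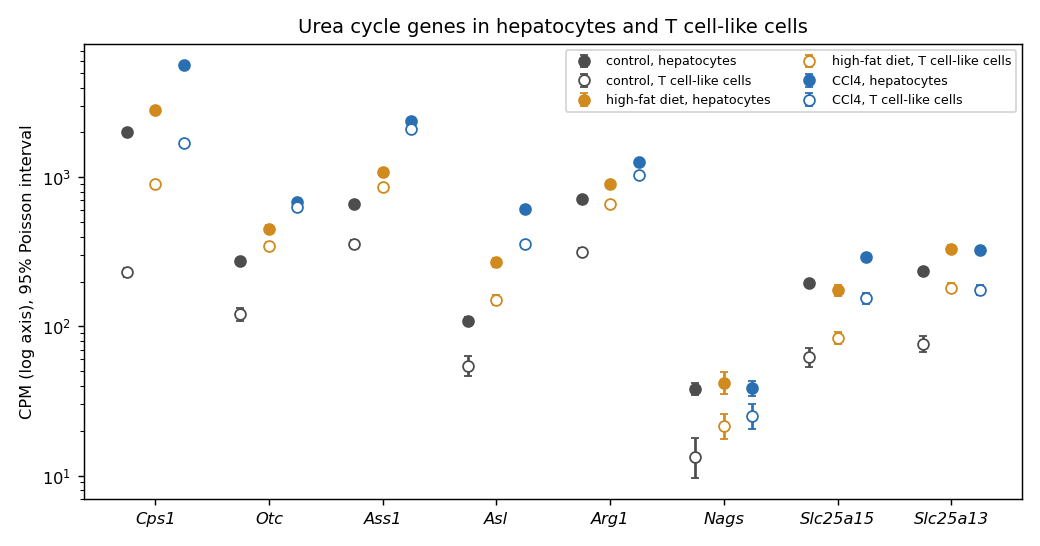
CPM of the 8 urea cycle genes (log axis) with 95% Poisson intervals, in hepatocytes (filled circles) and T cell-like cells (open circles) of the control, diet and CCl4 libraries. Cps1 is the highest member in each library, and the open circles approach the filled ones for Otc, Ass1 and Arg1 in the CCl4 library.

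Hepatocytes were ordered by a zone score made of 12 periportal and 12 pericentral genes, none of them a member or a gene of nitrogen metabolism, and the lowest and highest of 3 equal groups were compared as pericentral and periportal cells. In the control, these groups held 400 cells each and 16.4% of hepatocytes lay near a border of the groups. The periportal cells were deeper, with a median of 11329 UMIs against 7144 in pericentral cells. Genes outside the score gave an independent check of the direction. Glul was at 682 CPM in pericentral and 67.3 CPM in periportal cells, a ratio of periportal to pericentral of 0.0986 (0.0872 to 0.111), and Oat, the ornithine aminotransferase of pericentral cells, had a ratio of 0.0142 (0.0121 to 0.0166). Gls2, the liver glutaminase that releases ammonia, went the other way, from 9.65 to 185 CPM, a ratio of 19.2 (13.3 to 28.9).

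In control hepatocytes, 5 enzymes of the cycle had higher CPM on the periportal side, where the abundant genes of secreted hepatocyte proteins were also higher. Ass1 was at 382 CPM in pericentral, 726 CPM in middle and 793 CPM in periportal cells, a ratio of 2.08 (1.94 to 2.22). Arg1 was at 447, 776 and 862 CPM, a ratio of 1.93 (1.81 to 2.05), and Otc at 195, 301 and 312 CPM, a ratio of 1.60 (1.45 to 1.76). Cps1 was at 1420, 2319 and 2192 CPM, a ratio of 1.54 (1.49 to 1.60), and Asl at 79.8, 118 and 121 CPM, a ratio of 1.52 (1.31 to 1.78). The middle group was near the periportal level for each of these 5 enzymes. The aspartate carrier Slc25a13 had the opposite slope, with 333 CPM in pericentral and 195 CPM in periportal cells, a ratio of 0.586 (0.535 to 0.641). The ornithine carrier Slc25a15 had a ratio of 0.824 (0.745 to 0.913) and Nags of 1.07 (0.837 to 1.37), which included 1. The ratio was at least 1.5 for 5 of the 8 members, against 6.64% of 2667 genes tested (at least 50 CPM in 1 of the 2 groups, without the score genes), and at most 1 in 1.5 for 1 member, against 17.8% of those genes. The median was 1.53 over the members and 0.867 over the genes tested. Nags, under 50 CPM in both groups of each library, is included in the member counts and medians but not in the genes tested. The hepatocyte panel, 10 abundant genes of secreted proteins (albumin, apolipoproteins and others), was itself 1.46 times (1.45 to 1.47) as high in periportal as in pericentral cells. Per UMI of this panel, 0 members were past 1.5-fold upwards and 2 downwards, Slc25a13 at 0.401 (0.366 to 0.440) and Slc25a15 at 0.565 (0.510 to 0.626). On that scale Ass1 was at 1.42 (1.33 to 1.52), Arg1 at 1.32 (1.24 to 1.41) and Cps1 at 1.06 (1.02 to 1.10), and the intervals of Otc (1.10, 0.996 to 1.21) and Asl (1.04, 0.895 to 1.22) included 1. With the T cell-like level taken off, the ratios were larger, at 17.3 for Ass1, 4.19 for Arg1, 2.62 for Asl and 2.57 for Otc. Pericentral Ass1 (382 CPM) was there close to the level of T cell-like cells (357 CPM). By the ratio alone, all 14 alternatives kept the direction of each of these 5 enzymes. The size of their periportal slope in the control therefore depended on the scale. With a limit of 5 to 30% mitochondrial UMIs, or with the upper and lower of 2 equal groups, Ass1 and Arg1 were the members that stayed past 1.5-fold upwards, and Slc25a13 downwards.

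In high-fat diet hepatocytes (276 cells in each of both groups), the same 5 enzymes had larger ratios. Arg1 was at 360 CPM in pericentral, 1037 CPM in middle and 1234 CPM in periportal cells, a ratio of 3.43 (3.06 to 3.85). Asl had a ratio of 3.21 (2.62 to 3.96) and Ass1 of 2.94 (2.66 to 3.25). Cps1 was at 1366, 3238 and 3719 CPM, a ratio of 2.72 (2.56 to 2.89), and Otc had a ratio of 2.07 (1.80 to 2.39). Of these enzymes, all but Cps1 were lower in pericentral cells than in T cell-like cells of this library. Arg1 was at 360 against 658 CPM, Ass1 at 487 against 859 CPM, Otc at 270 against 349 CPM and Asl at 115 against 151 CPM. The intervals of Nags (ratio 1.06, 0.701 to 1.62), Slc25a15 (1.11, 0.904 to 1.35) and Slc25a13 (0.936, 0.808 to 1.08) included 1. The count was 5 of 8 members at least 1.5-fold higher, against 11.9% of 2830 genes tested, and 0 of 8 lower, against 18.6%. The median was 2.40 over the members and 0.921 over the genes tested. Per panel UMI, which was 1.55 times (1.54 to 1.57) as high in periportal cells of this library, 4 members were past 1.5-fold upwards, Arg1 at 2.21, Asl at 2.06, Ass1 at 1.89 and Cps1 at 1.75, and Slc25a13 was past it downwards at 0.602. With this library clustered on its own, no member was past 1.5-fold and the Ass1 ratio was 0.969 (0.881 to 1.07). That clustering left out 355 of the 829 cells, which fell in a cluster led by Cyp1a2, Glul and Slc1a2 that the markers did not name, so that the comparison lacked the cells led by these pericentral genes.

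In CCl4 hepatocytes (766 cells in each of both groups), no member was past 1.5-fold in either direction, against 2.38% of 2603 genes tested that were higher and 3.34% that were lower. Cps1 was at 5370 CPM in pericentral, 5753 CPM in middle and 5792 CPM in periportal cells, a ratio of 1.08 (1.05 to 1.10). Otc was nearly level, with 692, 683 and 689 CPM and a ratio of 0.996 (0.935 to 1.06). Asl had the largest ratio of the members, 1.36 (1.27 to 1.46), followed by Arg1 with 1.15 (1.10 to 1.21), Slc25a15 with 1.14 (1.03 to 1.26), Ass1 with 1.10 (1.06 to 1.14) and Nags with 1.05 (0.799 to 1.38). Slc25a13 again had the lowest, 0.795 (0.725 to 0.871). The score genes themselves were less far apart in this library, the periportal gene Cyp2f2 having a ratio of 1.32 (1.26 to 1.38) against 19.2 (16.7 to 22.4) in the control, whereas Cyp2e1, the pericentral P450 that activates CCl4, was still at 0.0429 (0.0349 to 0.0522) of its pericentral level. Glul was at 119 CPM in pericentral cells of this library, against 682 CPM in the control and 2382 CPM under the diet. Of the genes outside the score, Glul had a CCl4 zone ratio of 0.142 (0.103 to 0.192) and Oat of 0.0588 (0.0418 to 0.0806). Gls2 had a ratio of 1.49 (1.39 to 1.59), against 19.2 in the control. The ammonia-releasing genes Hal and Sds had ratios of 1.60 (1.51 to 1.70) and 2.12 (1.92 to 2.33), against 14.8 and 18.5 in the control. In pericentral cells of this library, Gls2 was at 511 CPM, Hal at 603 CPM and Sds at 219 CPM. T cell-like cells held 356, 492 and 395 CPM of these genes. The part of this background in their zone ratios was not tested. For the members, the level of T cell-like cells, given above, was a larger part of the hepatocyte level in this library. With that level taken off, 3 members were past 1.5-fold upwards, Ass1 at 2.83, Arg1 at 2.33 and Asl at 2.24, and Slc25a13 was past it downwards at 0.611. Cps1 was then at 1.11 and Otc at 0.951.

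Divided into 10 equal groups along the score, the change was concentrated at the pericentral end. Control Cps1 was at 697 CPM (646 to 752) in the most pericentral group of 121 cells, 1343 CPM (1269 to 1420) in the next and 2485 CPM (2376 to 2598) in the fifth, and at 2177 CPM (2100 to 2257) in the most periportal. Under the diet, Cps1 went from 809 CPM (714 to 914) in the first group to 3420 CPM (3199 to 3652) in the fifth and 3679 CPM (3487 to 3879) in the last. With CCl4 it was already at 4817 CPM (4675 to 4962) in the first group and at 5867 CPM (5702 to 6036) in the last. The lowest CCl4 group was therefore above the highest group of either other library.

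**Figure D2:**
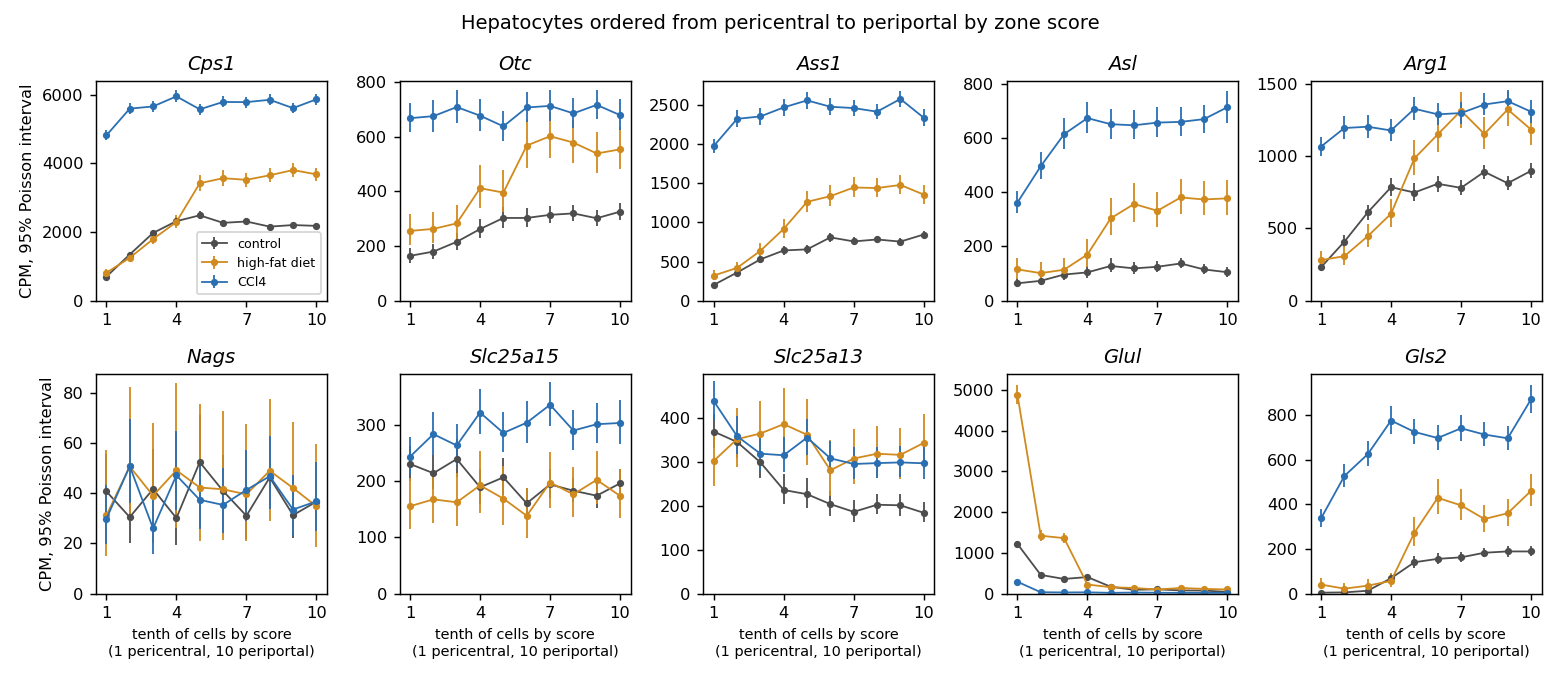
CPM with 95% Poisson intervals of the 8 members and of Glul and Gls2 in 10 equal groups of hepatocytes ordered by zone score, from pericentral (1) to periportal (10), in each library. Control and high-fat diet Cps1, Otc, Ass1, Asl and Arg1 are lowest at the left and level off near the middle, the CCl4 curves of these genes start higher, Nags has no slope beyond its intervals, and Glul is highest in the leftmost group.

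The comparison of the diet with the control asks how the cycle genes stood after 4 months of fat feeding. In hepatocytes of the high-fat diet library, 3 of the 8 members were at least 1.5-fold higher than in the control, against 21.5% of 2799 genes tested, and 0 were lower, against 13.5%. Asl had a ratio of 2.48 (2.26 to 2.71), higher than 95.8% of the genes tested. Ass1 (1.64, 1.57 to 1.71) and Otc (1.64, 1.54 to 1.74) were also past the limit. Cps1 had a ratio of 1.40 (1.37 to 1.44), Slc25a13 likewise of 1.40 and Arg1 of 1.24 (1.19 to 1.30). Nags was at 1.10 (0.896 to 1.34), and the ornithine carrier Slc25a15 was the 1 member below the control, at 0.888 (0.808 to 0.975). The median was 1.40 over the members and 1.09 over the genes tested. Nags, under 50 CPM in both libraries, is in the member count and median but not among the genes tested. In T cell-like cells, all 8 members also differed upwards, and each by a larger factor than in hepatocytes, for example 3.91 for Cps1 and 2.78 for Asl. Of the 3 calls, the one of Asl was kept when the CPM of T cell-like cells was taken off each hepatocyte level (ratio 2.17), while Otc (0.666) and Arg1 (0.586) were then past 1.5-fold downwards and Ass1 was at 0.732. The same CPM is thereby taken off cells of unlike depth. Median UMIs were 3594 in hepatocytes and 2201 in T cell-like cells under the diet, and 8423 and 2453 in the control. Whether free RNA is the same share of UMIs in both classes was not tested. Per UMI of the hepatocyte panel, Asl alone was past 1.5-fold, with a ratio of 2.17. With each library clustered on its own, 5 members were past it, and over all hepatocyte-like cells, without the mitochondrial and Ptprc limits, the Cps1 ratio was 0.765. The latter set compared unlike cells, with 6385 from the diet library, 5217 of them from a cluster poor in mitochondrial UMIs, against 1544 from the control, whose own cluster of that kind (3417 cells) was not named from the markers and was left out. Clustering on its own compared unlike cells too, with 1198 control and 465 diet hepatocytes. It left out 355 diet cells of an unnamed cluster led by Cyp1a2, Glul and Slc1a2.

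With CCl4, 5 of the 8 members were at least 1.5-fold higher in hepatocytes than in the control, against 20.0% of 2753 genes tested, and 0 were lower, against 17.8%. Asl had the largest ratio, 5.66 (5.31 to 6.03), higher than 99.2% of the genes tested. Its partner enzyme Ass1 followed with 3.65 (3.55 to 3.75), Cps1 with 2.81 (2.76 to 2.85), Otc with 2.49 (2.38 to 2.60) and Arg1 with 1.75 (1.70 to 1.80). Slc25a15 (1.49, 1.41 to 1.58) and Slc25a13 (1.38, 1.31 to 1.46) were within the limit, and Nags was level at 1.01 (0.869 to 1.17). The median was 2.12 over the members and 1.04 over the genes tested. The ratios of all 5 enzymes lay above the upper quartile of the genes tested, which was 1.41, the lower being 0.756. In T cell-like cells of the same libraries the ratios were larger for all 8 members, with 7.36 for Cps1, 6.56 for Asl, 5.96 for Ass1, 5.22 for Otc and 3.26 for Arg1. With the T cell-like level taken off, Asl (4.76) and Cps1 (2.22) were still past 1.5-fold upwards, whereas Otc (0.366) and Arg1 (0.564) were past it downwards and Ass1 was at 0.913. Median depth was 3130 UMIs in CCl4 hepatocytes against 2012 in T cell-like cells, and 8423 against 2453 in the control. The part of depth in these ratios was not tested. The hepatocyte panel itself was 1.60 times (91648 to 146683 CPM) as high with CCl4, and per panel UMI the ratios were 3.53 for Asl, 2.28 for Ass1, 1.75 for Cps1, 1.56 for Otc and 1.09 for Arg1. Nags, which was under the minimum of 50 CPM in all libraries, was at 0.540 with the T cell-like level taken off and at 0.630 per panel UMI.

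The 3 comparisons share their libraries and are not independent. Between the treated libraries, 5 of the 8 members were at least 1.5-fold higher with CCl4 than under the diet, against 8.74% of 2723 genes tested, and 0 were lower, against 12.0%. The ratios were 2.28 (2.13 to 2.46) for Asl, 2.22 (2.14 to 2.30) for Ass1, 2.00 (1.96 to 2.05) for Cps1, 1.68 (1.53 to 1.85) for Slc25a15 and 1.52 (1.44 to 1.61) for Otc. Arg1 was at 1.41 (1.35 to 1.47), Slc25a13 at 0.989 (0.922 to 1.06) and Nags at 0.918 (0.749 to 1.13). The levels of T cell-like cells were closer to each other here, and 6 of the 8 members had the larger ratio in T cell-like cells, the exceptions being Cps1 and Slc25a13. With the T cell-like level taken off, the ratios were 2.19 for Asl, 2.06 for Cps1 and 1.54 for Slc25a15, still past the limit, whereas Ass1 was at 1.25, Arg1 at 0.962 and Otc at 0.549. Per panel UMI, Asl (1.63) and Ass1 (1.59) were past the limit and Cps1 was at 1.43.

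**Figure D3:**
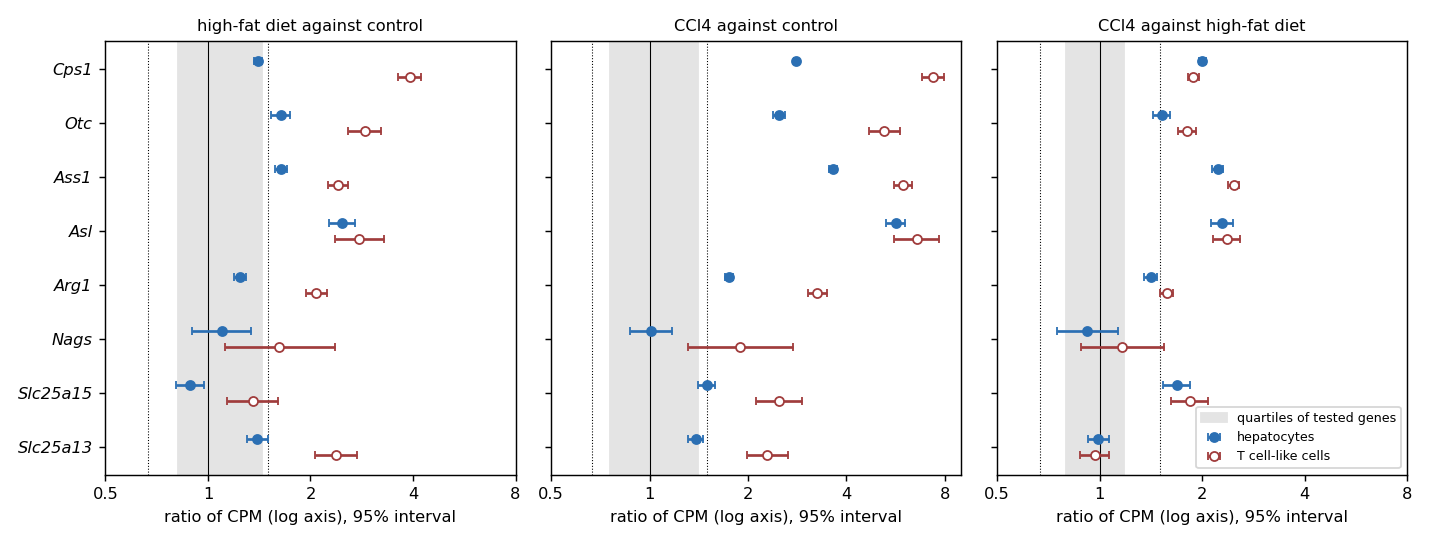
Ratio of CPM between libraries (log axis) with exact 95% intervals for the 8 members, in hepatocytes (filled) and T cell-like cells (open). The grey band spans the lower to the upper quartile of all genes tested in hepatocytes and the dotted lines mark 1.5-fold, and the open circles lie to the right of the filled ones for all members in both comparisons with the control.

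Set side by side by zone, the 5 enzymes had larger CCl4 ratios of CPM to the control in pericentral than in periportal cells, with overlapping intervals for Asl. Ass1 in pericentral CCl4 cells was 5.88 times (5.52 to 6.27) the control level of pericentral cells, against 3.11 times (2.99 to 3.24) in periportal cells. For Cps1 these ratios were 3.78 (3.66 to 3.91) and 2.64 (2.58 to 2.71), for Otc 3.54 (3.23 to 3.89) and 2.20 (2.06 to 2.36), and for Arg1 2.61 (2.45 to 2.79) and 1.56 (1.49 to 1.63). Asl was 6.29 times (5.48 to 7.24) and 5.63 times (5.13 to 6.19) the control level. The carriers went the other way, with 1.12 (1.02 to 1.22) and 1.52 (1.38 to 1.67) for Slc25a13 and 1.18 (1.06 to 1.31) and 1.63 (1.49 to 1.79) for Slc25a15. Under the diet, pericentral cells were near or below the control for Cps1 (0.962, 0.905 to 1.02) and Arg1 (0.805, 0.715 to 0.903), whereas periportal cells had ratios of 1.70 (1.64 to 1.76) and 1.43 (1.35 to 1.52), so that the larger diet ratios of these genes were on the periportal side. The hepatocyte panel was at 70960 CPM in pericentral and 103521 CPM in periportal control cells. It was at 79870 and 124052 CPM under the diet and at 136244 and 152041 CPM with CCl4. The ratios by zone are not given per panel UMI or with the T cell-like level taken off, and the part of either was not tested. Groups were cut within each library, so that the same name does not mean the same place in the lobule in each.

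Of 25 genes that release ammonia from amino acids, 24 were tested in each comparison of libraries. With CCl4, 17 of them were at least 1.5-fold higher in hepatocytes than in the control, against 20.0% of all genes tested, and 0 lower, against 17.8%, with a median ratio of 2.30. For 23 of the 24, the ratio was larger in T cell-like cells than in hepatocytes, with a median in T cell-like cells of 4.13 over the list. Gls2 went from 123 to 670 CPM, a ratio of 5.44 (5.12 to 5.78), the aspartate aminotransferase Got1 from 196 to 1003 CPM (5.11, 4.88 to 5.37) and the tryptophan dioxygenase Tdo2 from 700 to 2919 CPM (4.17, 4.07 to 4.28). In T cell-like cells the ratios were 10.6 for Gls2 (33.6 to 356 CPM), 4.49 for Got1 (122 to 549 CPM) and 8.15 for Tdo2 (219 to 1787 CPM). Under the diet, 10 of the 24 were higher, against 21.5%, and 0 lower, against 13.5%, with a median of 1.30, and Gls2 had a ratio of 2.03 (1.86 to 2.22) in hepatocytes and of 3.19 in T cell-like cells, where 23 of the 24 again had the larger ratio. Between the treated libraries, 12 of the 24 were higher with CCl4, against 8.74%, and 0 lower, against 12.0%, led by the serine dehydratase Sds (3.56, 3.18 to 4.01) and the glycine decarboxylase Gldc (3.01, 2.77 to 3.28). Here 20 of the 24 had the larger ratio in T cell-like cells, with 4.64 for Sds and 3.55 for Gldc. Sds was at 359 CPM in CCl4 hepatocytes and at 395 CPM in T cell-like cells of that library, so that its hepatocyte level there was not above that background. The part of free RNA in these ratios was not tested.

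Genes of pericentral ammonia capture went in opposite directions in the treated libraries. Glul was at 266 CPM in control hepatocytes, 855 CPM under the diet and 52.0 CPM with CCl4, ratios to the control of 3.21 (3.05 to 3.39) and 0.195 (0.176 to 0.216). Oat was at 724, 1301 and 84.9 CPM, ratios of 1.80 (1.73 to 1.87) and 0.117 (0.109 to 0.127). In T cell-like cells, the ratios to the control were 2.13 and 0.420 for Glul and 2.75 and 0.262 for Oat. Slc1a2, a glutamate carrier, was at 110.6 CPM under the diet and 3.75 CPM with CCl4, a ratio of 0.0339 (0.0229 to 0.0488). The list holds 4 genes, of which 3 were tested between the diet and the control and all 3 were higher, against 21.5% of all genes tested. With CCl4, both genes tested were lower than in the control, against 17.8%. The hepatocyte cluster of the high-fat diet library was led by pericentral genes, and the part of cell sampling along the lobule in these values was not tested.

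Among 16 neighbours of arginine and ornithine, 6 were tested against the control. Under the diet, 2 were higher, against 21.5% of all genes tested, and 0 lower, against 13.5%. With CCl4, 2 were higher, against 20.0%, and 1 lower, against 17.8%. Arg2, the mitochondrial arginase, had 1 UMI in control hepatocytes and 0 in the others, and Slc25a2, a second ornithine carrier, had 0 UMIs in hepatocytes of all libraries. Nos2, the inducible nitric oxide synthase, had 1 UMI in control hepatocytes and 0 in the others. Slc25a12 (aralar), the citrin paralog of other tissues, was at 12.8, 12.8 and 13.4 CPM, under the minimum of 50 CPM for a comparison. Arg2 and Slc25a2 were therefore far below every member in hepatocytes. Slc25a12 was below the lowest member, Nags (38.1, 41.8 and 38.4 CPM). In T cell-like cells, Slc25a12 was at 15.1, 12.4 and 13.2 CPM, near its hepatocyte level.

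Of 15 genes for substrate supply and transport, 11 were tested against the control, of which 5 were higher and 0 lower in each treated library. Of all genes tested, 21.5% were higher and 13.5% lower under the diet, and 20.0% and 17.8% with CCl4. In each of these comparisons, 8 of the 11 had the larger ratio in T cell-like cells. Slc38a2, a gene of this list, had a diet ratio to the control of 0.723 (0.673 to 0.776) in hepatocytes and of 0.660 in T cell-like cells. Car5a, the mitochondrial carbonic anhydrase that supplies bicarbonate to Cps1, was at 21.3 CPM in the control, 46.1 CPM under the diet and 31.9 CPM with CCl4, all under 50 CPM. T cell-like cells held 17.9, 51.2 and 41.0 CPM of Car5a. Its hepatocyte level was not above that background beyond counting error in any library. Of 15 regulators, 9 were tested between the diet and the control, of which 2 were higher and 2 lower, against 21.5% and 13.5% of all genes tested. Dbp, a clock-controlled factor, had a ratio of 9.01 (7.30 to 11.2), from 11.4 CPM in the control to 103 CPM. Control T cell-like cells held 13.3 CPM of Dbp. Cebpb had a ratio of 0.317 (0.300 to 0.335), from 1380 CPM in the control. Cebpd had a ratio of 0.270 (0.201 to 0.357), from 62.3 CPM in the control, and of 0.375 in T cell-like cells. With CCl4, 3 of 10 were higher and 2 lower, against 20.0% and 17.8%, and Cebpb had a ratio of 0.361 (0.349 to 0.373). The ratios of T cell-like cells were 5.85 for Dbp under the diet and 0.633 and 0.647 for Cebpb in the diet and CCl4 libraries.

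Across cell classes, hepatocytes had the highest CPM of 6 of the 8 members in each library. In the control, Cps1 was at 2012 CPM in hepatocytes, 309 CPM in the next class (B cell-like cells) and 97.2 CPM in the lowest (cholangiocyte-like cells). With CCl4, the next class was endothelial cell-like cells with 3668 CPM, followed in the plot of CPM by class by erythroid cell-like cells, and plasma cell-like cells were lowest with 977 CPM. Otc was not highest in hepatocytes of the treated libraries, where erythroid cell-like cells had 558 and 821 CPM against 452 and 688 CPM. Ass1 was higher in erythroid cell-like cells than in hepatocytes of the control (674 against 658 CPM) and high-fat diet libraries (1187 against 1080 CPM), Asl in the control (121 against 109 CPM) and Nags with CCl4 (40.3 against 38.4 CPM). No doublets were removed, and the part of doublets and of free RNA in these levels was not tested.

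Relative to the hepatocyte panel, Cps1 was 2.60 (2.42 to 2.80), 2.13 (2.05 to 2.20) and 2.74 (2.67 to 2.81) times as high in hepatocytes as in T cell-like cells of the control, diet and CCl4 libraries. Otc was at 0.682 (0.613 to 0.759), 0.882 (0.822 to 0.946) and 0.899 (0.859 to 0.942) and Ass1 at 0.551 (0.517 to 0.587), 0.855 (0.817 to 0.895) and 0.932 (0.909 to 0.955) on this scale. Per panel UMI, hepatocytes therefore held more Cps1 but fewer Otc and Ass1 UMIs than T cell-like cells. In the control, Asl at 0.597 (0.509 to 0.704) and Arg1 at 0.678 (0.635 to 0.724) were below 1 too. The control intervals of Nags, Slc25a15 and Slc25a13 included 1. The related genes that other classes use themselves had a different pattern. Arg2 was at 89.7 CPM (77.6 to 103) in control granulocyte-like cells, 88.9 CPM (70.5 to 111) under the diet and 62.7 CPM (32.4 to 109.6) with CCl4, against 0.616 CPM (0.0746 to 2.23) in control T cell-like cells. The endothelial synthase Nos3 was at 62.6 CPM (46.0 to 83.3) in control endothelial cell-like cells.

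**Figure D4:**
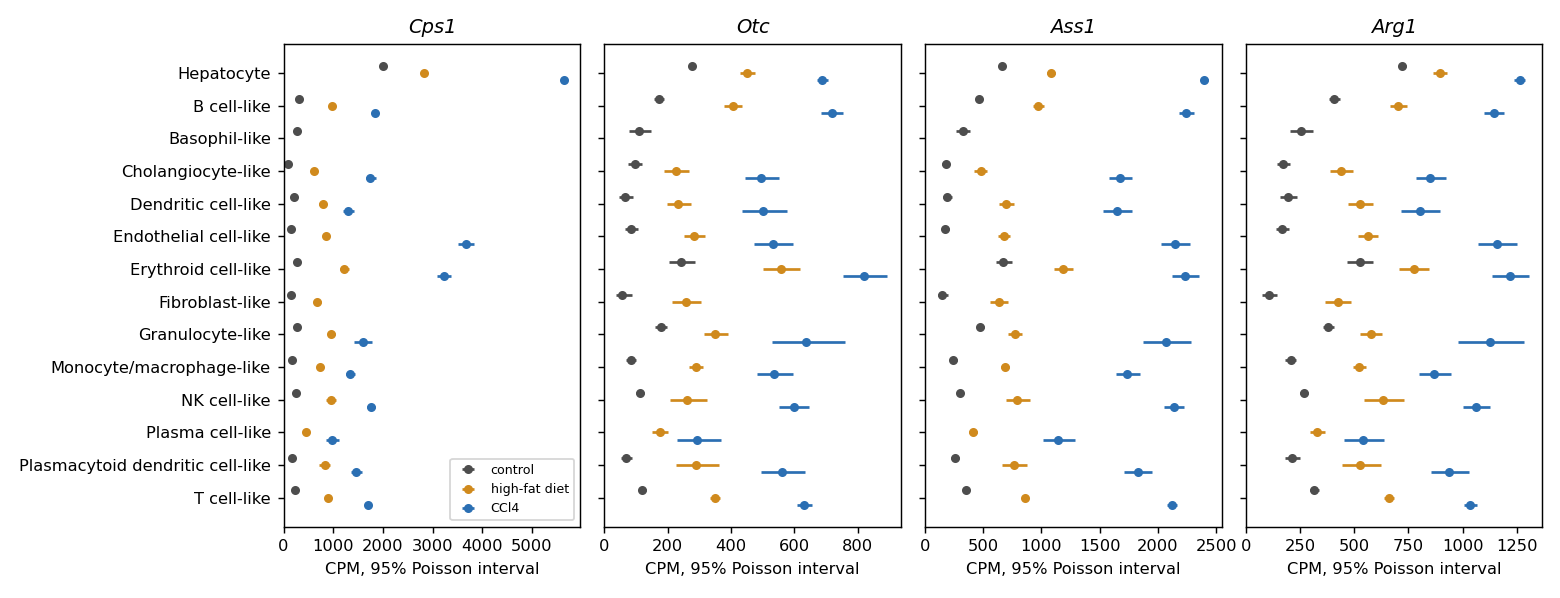
CPM of Cps1, Otc, Ass1 and Arg1 with 95% Poisson intervals in hepatocytes and in each named cell class with at least 50 cells, for each library. Cps1 is highest in hepatocytes, while Otc, Ass1 and Arg1 of the CCl4 library lie near the hepatocyte level in many classes.

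Each library also held a large cluster with few mitochondrial UMIs, outside the limits set for hepatocytes. In the control it held 3417 cells with a median of 0.333% mitochondrial UMIs, was led by Mt1, Saa2 and Saa1 and carried no cell type name. Under the diet it held 5217 cells (0.457%) and with CCl4 3994 cells (0.622%), both hepatocyte-like. Cps1 was lower in this cluster than in hepatocytes of each library, with 323 against 2012 CPM, 1067 against 2821 CPM and 2272 against 5644 CPM, ratios of hepatocytes to cluster of 6.23 (6.03 to 6.44), 2.64 (2.57 to 2.72) and 2.48 (2.44 to 2.53). Otc went the other way, with 455 against 276 CPM, 638 against 452 CPM and 964 against 688 CPM, ratios of 0.607, 0.709 and 0.713. Ass1 was also higher in the cluster, with ratios of 0.518 (0.504 to 0.533), 0.789 (0.761 to 0.819) and 0.915 (0.898 to 0.933). Slc25a15 and Slc25a13 were lower in the cluster in each library, with ratios of 1.36 to 1.59. Between libraries, the CCl4 cluster held 7.04 times as much Cps1 as the control cluster and 3.00 times as much Asl, 2.12 times as much Otc and 1.33 times as much Arg1. In T cell-like cells the same ratios were larger, with 7.36 for Cps1, 6.56 for Asl, 5.22 for Otc and 3.26 for Arg1. Their Cps1 level was 231, 903 and 1699 CPM in the control, diet and CCl4 libraries. The part of free RNA in the cluster was not tested.

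**Figure D5:**
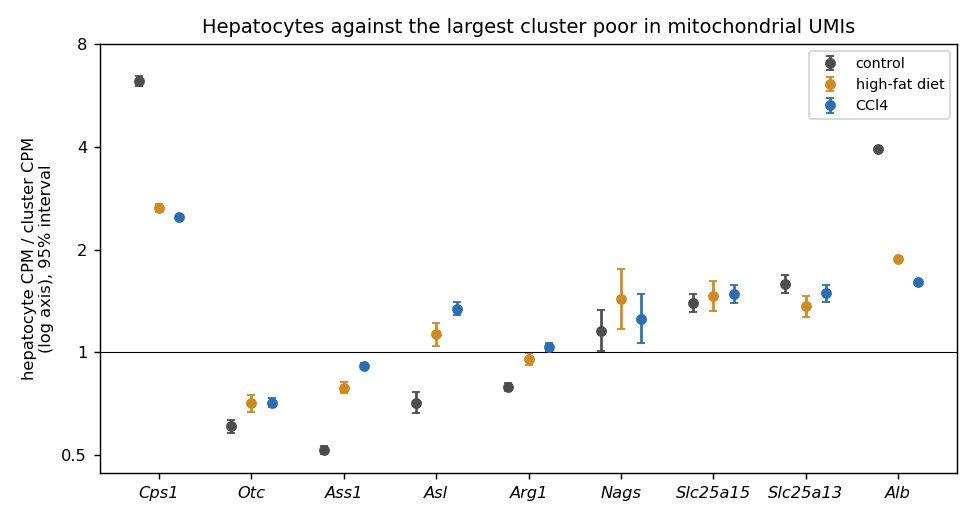
Ratio of CPM in hepatocytes to CPM in the largest cluster poor in mitochondrial UMIs of the same library (log axis, exact 95% intervals) for the 8 members and Alb. Cps1 and Alb lie above 1 in each library, Otc and Ass1 below 1.

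Over the 9 groups formed by 3 zones in 3 libraries, which share libraries and free RNA, the enzymes followed each other closely. Pearson's r of log2(CPM + 5) was 0.993 between Cps1 and Ass1, 0.986 between Otc and Ass1, 0.982 between Otc and Asl and 0.932 between Cps1 and Arg1. Slc25a15 had r = 0.694 with Cps1, Slc25a13 0.225 and Nags 0.00314. Among 3269 genes, the most similar to Ass1 were Cps1, Otc and Etnppl (r = 0.986), the most similar to Cps1 after Ass1 were Ivns1abp (0.986) and Hgfac (0.983), and the most similar to Arg1 was Amdhd1 (0.986), an enzyme of histidine breakdown. Asl was most like Ece1 (0.993), Slc25a13 most like Nadk2 (0.989) and Nags had no gene above 0.865. These correlations are descriptions over 9 groups.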

How the data were processed

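Single-cell RNA of 3 mouse liver libraries was analysed. The files the authors deposited hold UMI counts without normalization, and their headers name Cell Ranger 7.2.0. The paper names mm10 and the submitters' processing notes GRCm39; how barcodes were called as cells is not given in the sources used here. Positions use GENCODE M21 (GRCm38). The files carry no coordinates.

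Barcodes with over 30% mitochondrial UMIs were removed (38, 1 and 0); none had under 500 UMIs or 200 genes. Doublets were not removed. All libraries were clustered together (scanpy 1.11.5, 2000 variable genes without the members, 30 components, 15 neighbours, Leiden resolution 1), giving 38 clusters. A cluster was named from marker lists when at least 3 markers were among its 10 leading genes and more than of any other class, or when the class with the largest raised share (at least 50%) had no rival there; this rule was set after the clusters were seen. UMIs were summed per class and library and given as CPM with exact Poisson intervals, also for a count of 0. Shares have Clopper-Pearson intervals and ratios exact conditional intervals. All of these cover counting error only.

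With 1 library per condition no test was made. A gene was tested with at least 50 CPM in 1 group and called past 1.5-fold. Named were all members, per comparison the 3 highest and 3 lowest genes of the related lists, and 8 fixed relatives (Glul, Oat, Gls2, Arg2, Slc25a12, Slc25a2, Car5a and Nos2), with Hal and Sds for the zones. Members and lists were chosen with earlier results of these data known, and the promoter motifs with the sequences known. Ratios, thinning and the zone split were tested on simulated data.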

Additional observations from a re-analysis of the deposited data

Results flagged for a closer look

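Slc25a15, the mitochondrial ornithine carrier, stood out because its direction by CPM differed between groups, and this difference was not tested. Its ratio of periportal to pericentral hepatocytes was 0.824 (0.745 to 0.913) in the control library and 1.14 (1.03 to 1.26) with CCl4, the intervals covering counting error only. Against the control, it was at 0.888 (0.808 to 0.975) on the high-fat diet and at 1.49 (1.41 to 1.58) with CCl4. In T cell-like cells, the ratios to the control were 1.35 and 2.49. Per UMI of the hepatocyte panel, the CCl4 ratio to the control in hepatocytes was 0.933, while 9 of 10 alternatives kept the direction. The CCl4 zone ratio was 0.998 with 5 to 30% mitochondrial UMIs, while 13 of 14 alternatives kept its direction.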

How the results depend on the processing

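No paired analysis was possible because each condition has 1 library and no result comes from a test. For the diet against the control, the count of members past 1.5-fold (3) was 1 with 5 to 30% mitochondrial UMIs, 5 with each library clustered on its own and 1 at 2-fold. Of the alternatives added after seeing the data, it was 1 per UMI of the hepatocyte panel, and 3 (1 higher and 2 lower) with the T cell-like level taken off, where Otc was at 0.666 and Ass1 at 0.732. For CCl4 against the control (5), taking off that level gave 5 (2 higher and 3 lower, the lower ones including Nags, which is under 50 CPM), with Otc at 0.366, Ass1 at 0.913 and Arg1 at 0.564. For CCl4 against the diet (5), clustering each library on its own gave 3, the panel gave 3 (2 higher and 1 lower, the latter Nags) and 2-fold gave 3, and Otc was at 0.549 with the T cell-like level taken off. Clustering on its own gave 888 CCl4 hepatocytes, against 2299 in the main set. Of the main set, 606, 432 and 273 cells then fell in the 3 largest unnamed clusters. For the zones in the control (6), 5 to 30% mitochondrial UMIs gave 3, 2 equal groups gave 3 and 2-fold gave 1, and the panel, likewise added after seeing the data, gave 2 (0 higher and 2 lower). With the T cell-like level taken off, the control zone ratios were 17.3 for Ass1, 4.19 for Arg1, 2.62 for Asl and 2.57 for Otc. On the high-fat diet (5), all hepatocyte-like cells gave 3, and clustering on its own gave 0, with Ass1 at 0.969. That clustering left out cells of a cluster led by Glul and Cyp1a2, and the part of this in the values was not tested. Taking off the T cell-like level gave no value for the zones on the high-fat diet, since 4 of the 8 members (Otc, Ass1, Asl and Arg1) were not above it in pericentral cells. With CCl4 (0), all hepatocyte-like cells gave 1, clustering on its own 1, the 10% of cells at each end 1 and the T cell-like level taken off 4 (3 higher and 1 lower). Taking off the T cell-like level treats free RNA as the same share of UMIs in hepatocytes and T cell-like cells, which was not tested. The causes of these differences were not tested. The Asl ratios to the control ran from 2.17 to 3.34 for the diet and from 3.53 to 8.06 for CCl4 over 10 alternatives. Both upper values came from each library clustered on its own. Depth limits Nags most, with 134 to 408 UMIs per library.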
